A study of Rattus norvegicus with 6 samples.

Results

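The rat miRNAs miR-99a, miR-99b, miR-100, miR-125a, miR-125b and miR-10a were followed in small RNA from exosomes, small membrane vesicles that cells shed into their medium. Every mature miRNA whose name begins with one of the first 5 of these names was taken, together with miR-10a-5p. This gave 8 of the 311 distinct mature sequences in the deposited count table, 5 of them listed in all 6 libraries. The vesicles came from bone marrow stromal cells (BMSCs), adherent marrow cells that can form bone, taken from tibias and femurs of male rats of the strain the labels give as SD, at 4 weeks of age. The hypoxia group was kept at 1% oxygen and the normoxia control group at 21% oxygen, each with 5% carbon dioxide and 3 libraries, and the labels give no genetic change in either group. The medium of all cultures held 10% fetal bovine serum. No label ties a library to an animal or a culture of its own, so the spread behind each p-value is that between libraries and may be technical. The fit behind the p-values estimates part of that spread jointly over all tested sequences.

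A miRNA guides silencing complexes to messenger RNAs that pair with its seed, bases 2 to 8 from the 5′ end, so miRNAs with the same seed are grouped as a family. miR-99/100, let-7 and miR-125 are an old set of companions: in flies and mammals their hairpins lie together and can be cut from shared primary transcripts (polycistrons). miR-125 is the vertebrate counterpart of worm lin-4, a regulator of developmental timing, and let-7 was found in the same worm pathway. miR-100 is known in human cells to repress MTOR and IGF1R, growth signalling genes. miR-10a is encoded in the HoxB gene cluster, whose transcription factors set position along the body axis.

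The mature sequences show which members share a seed, which is in capitals (5′ to 3′, from the deposited table).
rno-miR-100-5p: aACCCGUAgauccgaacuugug
rno-miR-99a-5p: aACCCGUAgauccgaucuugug
rno-miR-99b-5p: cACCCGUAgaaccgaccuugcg
rno-miR-10a-5p: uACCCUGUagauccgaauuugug
rno-miR-125b-5p: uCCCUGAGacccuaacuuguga
rno-miR-125a-5p: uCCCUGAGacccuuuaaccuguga
rno-miR-99b-3p: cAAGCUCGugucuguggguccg
rno-miR-125b-1-3p: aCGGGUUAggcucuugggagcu
The deposited sequences of 7 of the 8 were the same as a RefSeq mature sequence of that name (GRCr8). For the other, miR-99a-5p, there was no RefSeq mature entry to compare, but the RefSeq Mir99a hairpin contains its deposited sequence.

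The 3 guide strands miR-100-5p, miR-99a-5p and miR-99b-5p share the seed ACCCGUA, and no other listed sequence has it. miR-100-5p and miR-99a-5p differ at 1 base outside the seed, A16U, counted from 1 at the 5′ end with the base of miR-100-5p first. miR-99b-5p differs from miR-100-5p at 4 bases, A1C, U11A, A16C and U21C, all outside the seed. A read of miR-100-5p or miR-99a-5p that ends before base 16 would fit both, and how the authors assigned such reads is not given in the sources used here, so the split between the pair is uncertain. miR-10a-5p has the related seed ACCCUGU and shares its longest run with miR-100-5p, 11 bases, at position 6 of miR-100-5p and position 7 of miR-10a-5p. The miR-125 guide strands share CCCUGAG with miR-351-5p and 1 unannotated sequence, which had 13 counts in normoxia replicate 3 alone. Lined up from base 1 without gaps, miR-125b-5p differs from miR-125a-5p at 7 of the first 22 bases. miR-125b-5p is 22 bases long and miR-125a-5p 24, so bases shifted by the added length are counted among the 7. The seed of miR-99b-3p, AAGCUCG, also occurs in 1 unannotated sequence, with 4 counts in hypoxia replicate 3 and 3 in normoxia replicate 3.

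The libraries held 106954 to 248542 counts. Hypoxia replicate 1 stood apart from the other 5: it listed 85 sequences against 129 to 183, and 15.4% of its counts were miR-320-3p against 0.891 to 2.92%. All 7 markers of mesenchymal stromal cells on a fixed list, such as miR-21-5p and miR-199a-3p, were listed, and together they held 25.8 to 39.5% of each library. On average that share was mostly miR-21-5p, which ranked 1 by mean level among the 107 sequences with enough counts to test. By the same measure miR-199a-3p ranked 7, miR-214-3p 57 and miR-145-5p 100. Markers of other sources held smaller shares. Muscle markers held 0.147 to 1.89% of the hypoxia libraries and 0.324 to 0.487% of the normoxia libraries, with miR-133a-3p and miR-133b-3p not listed. The liver marker miR-122-5p held 0.464 to 0.905% of any library, blood cell markers at most 0.103%, and endothelial markers at most 0.0964%. Neural markers held at most 0.425%, with miR-124-3p not listed, and epithelial markers at most 0.0112%. In bulk vesicle RNA, fewer vesicles of a kind and fewer copies per vesicle cannot be told apart.

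In both groups the miR-99/100 family held several percent of the counts of mature miRNA sequences, which are not all of the vesicle RNA. The 4 listed strands of the family, miR-99b-3p included by name and not by seed, held 6.74%, 4.63% and 8.05% of the counts of hypoxia replicates 1 to 3. In normoxia replicates 1 to 3 they held 6.64%, 6.25% and 6.48%. The 3 hypoxia libraries lay both below and above the normoxia libraries, which sat close together. The group means were 6.47 ± 1.73% and 6.46 ± 0.197% (SD, n = 3 each), so the difference was far smaller than the spread between hypoxia libraries. In single libraries the exact (Clopper-Pearson) 95% intervals were narrow, from 4.52 to 4.74% in hypoxia replicate 2 and from 7.94 to 8.16% in hypoxia replicate 3. Counting is the sole error they hold: the values are read counts, which cannot be taken as independent molecules.

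**Figure D1:**
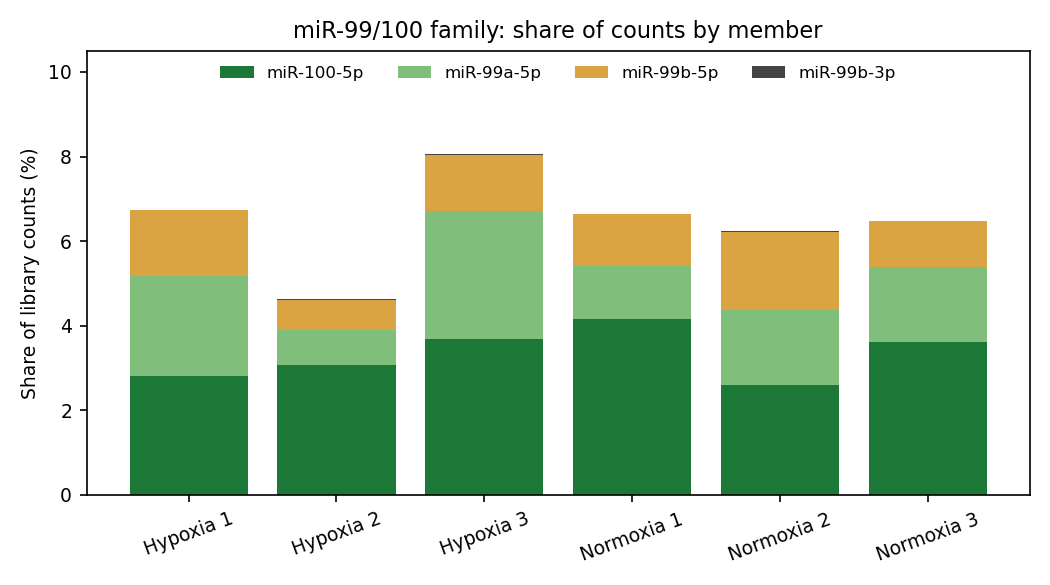
Stacked bars give the percent of each library's counts held by miR-100-5p, miR-99a-5p, miR-99b-5p and miR-99b-3p, with one bar per library. The bars reach 6.25 to 6.64% under normoxia and 4.63 to 8.05% under hypoxia, and the split among the 3 guide strands differs from bar to bar.

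The make-up of the family varied between libraries of both groups. miR-100-5p made up 41.7%, 66.2% and 45.7% of the family's counts in hypoxia replicates 1 to 3. In normoxia replicates 1 to 3 its part was 62.6%, 41.5% and 55.8%. Hypoxia replicate 2 and normoxia replicate 1 thus had the highest parts, one from each group. miR-99a-5p made up 18.0% of the family in hypoxia replicate 2 and 19.0% in normoxia replicate 1, and 27.2 to 37.6% in the other 4 libraries. miR-99b-5p made up 15.5 to 29.2%, with its highest part in normoxia replicate 2.

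miR-100-5p, the most abundant member, ranked 10 by mean level among the 107 sequences tested, in which miR-21-5p ranked 1 and let-7c-5p 2. The rno-miR-100-5p counts were 3338, 4469 and 9148 in hypoxia replicates 1 to 3 and 4448, 5328 and 8222 in normoxia replicates 1 to 3. As CPM, counts scaled to a common library size, with TMM factors, which correct for libraries dominated by a few sequences, these were 22587, 33041 and 36883 CPM under hypoxia and 43086, 26087 and 39985 CPM under normoxia. The groups overlapped, with the lowest CPM in hypoxia replicate 1 and the highest in normoxia replicate 1. Hypoxia replicate 1 had the highest TMM factor, 1.25, which lowers its CPM. As a plain share of library counts, miR-100-5p was lowest in normoxia replicate 2, at 2.59%, beside 2.81% in hypoxia replicate 1. Its coefficient of variation over the 6 libraries was 23.8%, against a median of 38.1% over the 56 tested sequences listed in all libraries, and 7.14% of those varied less. Sequences near it in rank were mixed: miR-199a-3p (rank 7) had 18.7%, let-7f-5p (rank 8) 33.1%, miR-320-3p (rank 9) 118% and let-7a-5p (rank 11) 14.3%. Hypoxia over normoxia, the fitted log2 fold change of miR-100-5p was -0.24 (SE 0.32, 95% interval -0.93 to 0.45), and it was 0.16 without hypoxia replicate 1. With library totals only it was -0.12, and in limma on the authors' normalized values -0.07.

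miR-99a-5p, encoded beside let-7c-1, was the most variable of the abundant members. Its coefficient of variation was 39.8%, near the median of 38.1% over the 56 tested sequences listed in all libraries. Hypoxia replicates 1 to 3 held 2816, 1217 and 7533 counts of rno-miR-99a-5p, and normoxia replicates 1 to 3 held 1347, 3675 and 4008. In CPM the values were 19055, 8998 and 30371 under hypoxia and 13048, 17994 and 19492 under normoxia. Both the lowest and the highest library were hypoxia libraries, 3.38-fold apart, and the normoxia values lay between them. Its log2 fold change was 0.21 (SE 0.41, 95% interval -0.69 to 1.10), and -0.13 without hypoxia replicate 3. Without hypoxia replicate 2 it was 0.68.

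miR-99b-5p, from a hairpin beside let-7e, was counted 1843, 1047 and 3294 times in hypoxia replicates 1 to 3 and 1299, 3751 and 2465 times in normoxia replicates 1 to 3. In CPM the hypoxia libraries held 12471, 7741 and 13281 and the normoxia libraries 12583, 18366 and 11988. Hypoxia replicate 2 was the lowest and normoxia replicate 2 the highest, and the other 4 libraries lay close together. Its fitted log2 fold change was -0.36 (SE 0.36, 95% interval -1.13 to 0.42), with an unadjusted p of 0.337 in edgeR's fit over all sequences, the smallest among the members, and an adjusted p of 0.998. Without hypoxia replicate 2 it was -0.03, and without normoxia replicate 2 it was -0.08.

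The miR-99b hairpin, shown because it was the only member hairpin listed with a strand from each side that no other hairpin shares, lies at chr1:67350064-67350133 on the plus strand (GRCr8, RefSeq). Capitals mark the 5p and the 3p strand.
Mir99b: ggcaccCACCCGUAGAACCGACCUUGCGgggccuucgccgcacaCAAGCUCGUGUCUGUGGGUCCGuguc
The 3p strand, the usual by-product of processing, was a small part of the pair. It had no listed count in hypoxia replicate 1, and 21 and 35 in hypoxia replicates 2 and 3. In normoxia replicates 1 to 3 it had 9, 88 and 29. Where listed, it made up 1.97% and 1.05% of the pair under hypoxia and 0.688%, 2.29% and 1.16% under normoxia. Normoxia replicate 2 (exact 95% interval 1.84 to 2.82%) thus lay above normoxia replicate 1 (0.315 to 1.30%) in counting error, and the groups overlapped. For miR-99b-3p the fitted value was -1.15 (SE 1.89) on the log2 scale, and it was -0.33 when hypoxia replicate 1, which did not list it, was left out. Without normoxia replicate 2 it was -0.16.

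The miR-125 family held a smaller part of the miRNA counts. Its 3 listed strands held 0.504%, 0.369% and 0.481% of the counts of hypoxia replicates 1 to 3, and 0.450%, 0.298% and 0.650% of normoxia replicates 1 to 3. The group means were 0.451 ± 0.0725% and 0.466 ± 0.177% (SD, n = 3 each), a difference within the spread. The lowest and the highest library were both normoxia libraries. A fixed list of relatives held 5 strands: miR-351-5p, miR-10b-5p and the 3p strands of miR-351, miR-10a and miR-10b. Of these, 1 had a listed count: miR-351-5p, with 8 in hypoxia replicate 2 alone. It shares the miR-125 seed, while miR-10b-5p shares no member's seed, so the list is not one of seed partners.

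miR-125b-5p, known in mouse stromal cells to slow osteoblast differentiation, carried most of the family. Its counts were 598, 475 and 971 in the hypoxia libraries and 448, 588 and 1204 in the normoxia libraries, or 4046, 3512 and 3915 CPM against 4340, 2879 and 5855 CPM. The hypoxia values lay inside the normoxia range. The log2 fold change was -0.19 (SE 0.40, 95% interval -1.06 to 0.68), and 0.18 without normoxia replicate 3. The same mature strand comes from 2 hairpins, Mir125b1 and Mir125b2, so its counts cannot be assigned to either.

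miR-125a-5p differed widely between libraries of the same group. It had no listed count in hypoxia replicate 1, and 44 and 184 in hypoxia replicates 2 and 3. Under normoxia it had 15, 25 and 189. In CPM the listed values were 325 and 742 under hypoxia and 145, 122 and 919 under normoxia, 7.51-fold from lowest to highest. The high libraries were replicate 3 of each group, which also had the 2 highest totals of miRNA counts. The part of the library total in this was not tested. For miR-125a-5p the log2 fold change was -0.15 (SE 1.78, 95% interval -3.99 to 3.69). It was 0.60 without hypoxia replicate 1, -1.11 without hypoxia replicate 3 and 1.50 without normoxia replicate 3, so its sign changed with the library left out. miR-125b-1-3p, the other strand of the Mir125b1 hairpin, was counted 0, 19 and 41 times in the hypoxia libraries and 18, 0 and 84 times in the normoxia libraries, where 0 means not listed. Its log2 fold change was -0.92 (SE 2.13), and 0.37 without normoxia replicate 3.

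miR-10a-5p was scarce but listed everywhere. Its counts were 64, 102 and 127 in hypoxia replicates 1 to 3 and 77, 67 and 77 in normoxia replicates 1 to 3, or 433, 754 and 512 CPM against 746, 328 and 374 CPM. Normoxia replicate 1 lay just below the highest hypoxia library, while the other 2 normoxia libraries lay below all hypoxia libraries. The log2 fold change was 0.23 (SE 1.24, 95% interval -2.44 to 2.90), and it was 0.76 without normoxia replicate 1. Its 6 CPM values spanned 2.30-fold. The error depended on the tool, with an SE of 0.88 in DESeq2 and 0.55 in limma on the authors' normalized values.

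Of the 11 Hox cluster miRNAs on a fixed list, 3 had a listed count. Besides miR-10a-5p these were miR-196a-5p, counted 0, 4 and 11 times in the hypoxia libraries and 0, 62 and 5 times in the normoxia libraries, and miR-196b-5p, with 2 counts in hypoxia replicate 2; neither passed the filter on low counts. miR-10b-5p, the counterpart of miR-10a in the HoxD cluster, had no listed count. Its RefSeq mature strand (GRCr8) is shown because it starts at another base than miR-10a-5p.
rno-miR-10b-5p: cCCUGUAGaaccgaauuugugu
Bases 2 to 8 read CCUGUAG, so in this annotation the pair does not share a seed.

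**Figure D2:**
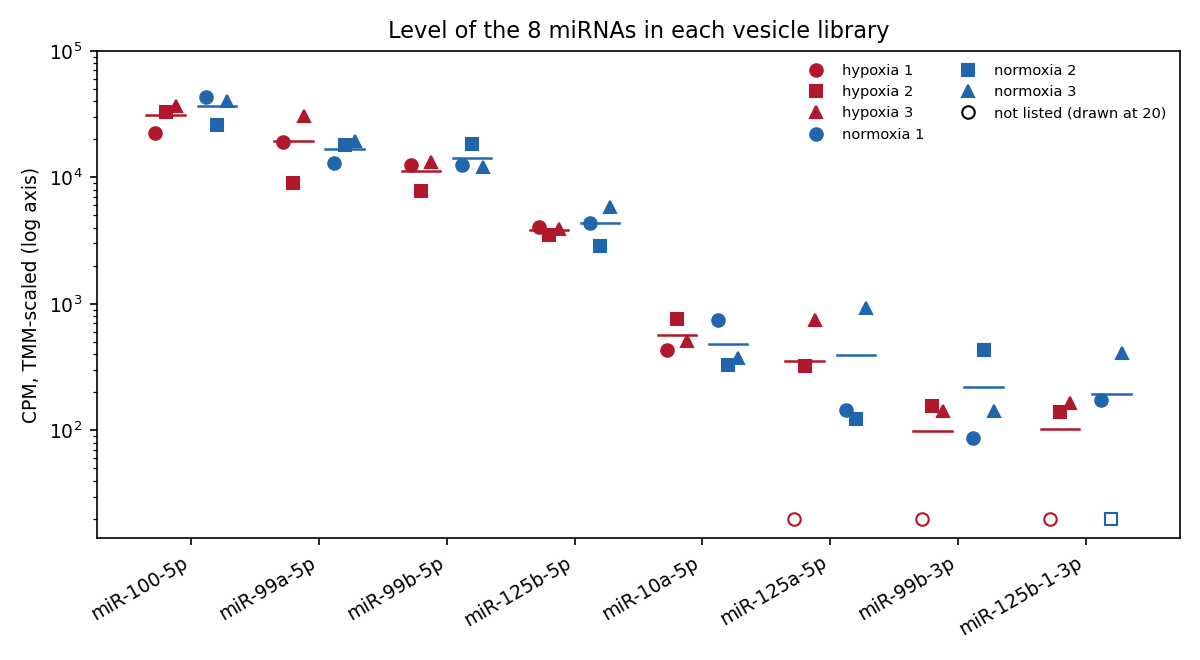
Points give TMM-scaled CPM on a log axis for each of the 8 miRNAs, red for hypoxia and blue for normoxia, with a shape for each replicate number and a line at each group mean, in which a strand that is not listed counts as 0. Open symbols drawn at 20 are libraries with no listed count, and the red and blue points of every miRNA overlap in range.

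The order of levels was steady at the top and not at the bottom. miR-100-5p, at a mean of 33612 CPM, exceeded miR-99a-5p, at 18160 CPM, in 6 of 6 libraries. miR-99a-5p exceeded miR-99b-5p, at 12738 CPM, in 5 of 6, with normoxia replicate 2 as the exception. miR-99b-5p exceeded miR-125b-5p, at 4091 CPM, and that in turn miR-10a-5p, at 525 CPM, in 6 of 6 libraries each. miR-10a-5p and miR-125a-5p, at 376 CPM, changed places in replicate 3 of both groups. miR-99b-3p and miR-125b-1-3p, at 159 and 148 CPM, could not be put in an order. All these strands are 22 to 24 bases long, but the order is one of read counts. Whether each strand was captured equally well was not tested, so it need not be the order of molecules.

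Ratios within a library need no scaling, and those between polycistron partners show whether the products of shared loci kept a fixed proportion. In the RefSeq gene table (GRCr8) the hairpins of miR-99b, let-7e and miR-125a lie in that order inside the gene Spaca6. Those of miR-100, let-7a-2 and miR-125b-1 lie inside Mir100hgl, and those of miR-99a, let-7c-1 and miR-125b-2 inside the long noncoding RNA gene LOC103693508. Mature let-7a, let-7c and miR-125b-5p each come from more than one hairpin. Of the ratios computed between partners, only those at the Spaca6 locus therefore use single-hairpin strands alone.

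At that locus the proportions were not fixed. miR-99b-5p was 3.26, 1.89 and 6.71 times let-7e-5p in hypoxia replicates 1 to 3. In normoxia replicates 1 to 3 it was 3.52, 9.52 and 5.76 times let-7e-5p. The lowest ratio was a hypoxia library and the highest a normoxia library, and the groups overlapped. On the log2 scale the mean was 1.79 ± 0.92 in the hypoxia libraries and 2.53 ± 0.72 in the normoxia libraries (SD, n = 3 each). let-7e-5p itself stood at 3823, 4103 and 1980 CPM in the hypoxia libraries and 3574, 1929 and 2081 CPM in the normoxia libraries. Its levels spanned 2.13-fold and those of miR-99b-5p 2.37-fold, while their ratio spanned 5.05-fold. miR-125a-5p, the third product, was 0.0420 and 0.0559 times miR-99b-5p in hypoxia replicates 2 and 3. The normoxia ratios were 0.0115, 0.00666 and 0.0767, an 11.5-fold range over the 5 libraries that list both.

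At the Mir100hgl locus miR-100-5p and let-7a-5p had similar counts. Their ratio was 0.958, 1.06 and 1.42 under hypoxia and 1.91, 0.821 and 1.51 under normoxia. The hypoxia ratios lay inside the normoxia range. miR-125b-5p was 0.179, 0.106 and 0.106 times miR-100-5p under hypoxia and 0.101, 0.110 and 0.146 times under normoxia. This was the narrowest of the 11 ratios computed, with a 1.78-fold range.

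miR-99a-5p was 0.241, 0.0717 and 0.307 times let-7c-5p under hypoxia and 0.0998, 0.156 and 0.219 times under normoxia, and the groups overlapped. The ratio of miR-99a-5p to miR-100-5p, the pair that differs at A16U, was 0.844, 0.272 and 0.823 under hypoxia and 0.303, 0.690 and 0.487 under normoxia. Hypoxia replicate 2 and normoxia replicate 1 had nearly the same low ratio, and the other 2 hypoxia libraries had the highest. The log2 means were -0.80 ± 0.93 and -1.10 ± 0.60 (SD, n = 3 each). In all 11 ratios the hypoxia and normoxia values overlapped. miR-10a-5p over miR-100-5p was the nearest to separation, with 0.0192, 0.0228 and 0.0139 under hypoxia and 0.0173, 0.0126 and 0.00937 under normoxia.

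**Figure D3:**
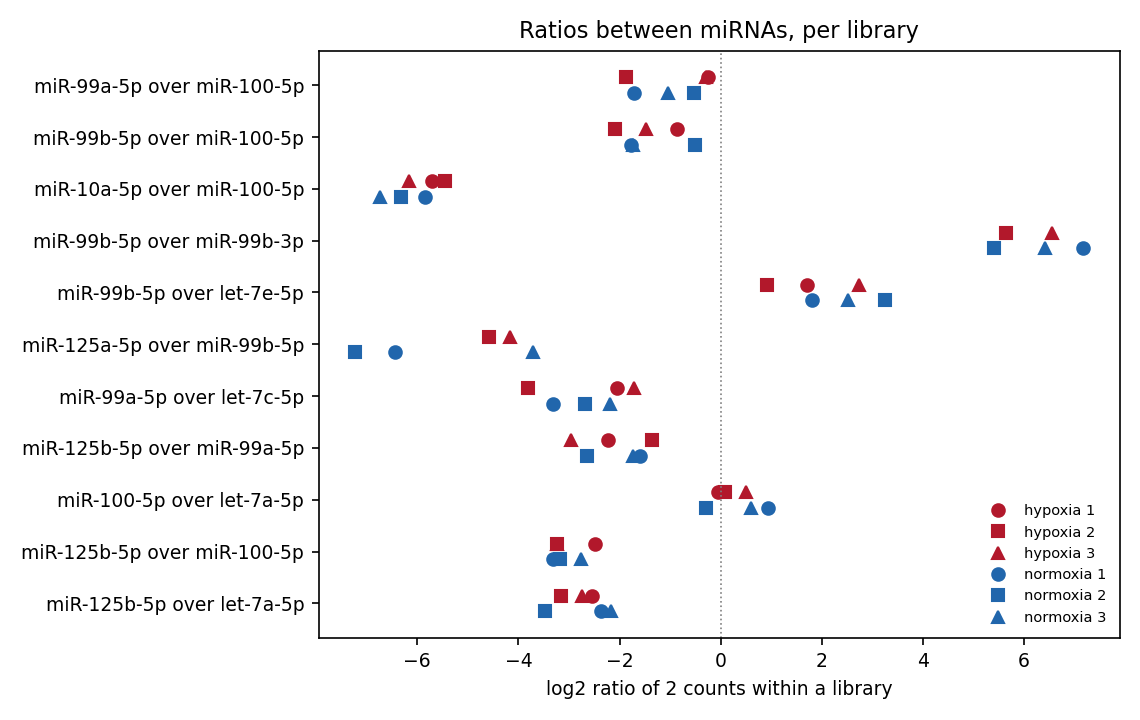
Each point is the log2 ratio of 2 counts in a library, for the 11 ratios that could be formed, with hypoxia in red, normoxia in blue and a shape for each replicate number. The points for miR-125a-5p over miR-99b-5p spread over the widest range, and no row separates the groups.

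The comparison of 1% with 21% oxygen asked whether preconditioning the cells at low oxygen changed these vesicle miRNAs. All 8 members passed the filter on low counts and were tested with the other sequences, 107 in all. In edgeR's quasi-likelihood test with Benjamini-Hochberg adjustment over the 107, 0 of the 8 were called higher and 0 lower at an adjusted p under 0.05, against 0.0% of all tested sequences in each direction. At an unadjusted p under 0.05 the count was 0 members, against 0.935% of all sequences. The hypoxia libraries all lay below the normoxia libraries for 7.48% of the 107 sequences and for 0 members, and all above for 0.0% and for 0 members. Of the 8 fitted values, 2 were above 0 (41.1% of all sequences were) and 6 below (58.9%). Their median was -0.21, beside -0.14 over all 107.

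Errors were smallest for the 4 abundant members. The SE was 0.32 to 0.41 for miR-100-5p, miR-99b-5p, miR-125b-5p and miR-99a-5p, against a median of 1.44 over all sequences, and 1.24 to 2.13 for the other 4 members. For miR-100-5p the 95% interval of this fit leaves out a doubling or a halving, while for miR-125a-5p and both 3p strands it holds changes of many fold either way. Over the alternative fits the SE of miR-100-5p ran from 0.29, with library totals only, to 0.48, in limma on the authors' normalized values. Leaving out a halving is therefore a statement about this fit alone. Missing the threshold is no sign that a member stayed the same. DESeq2 also called 0 members, as did limma on the authors' normalized values.

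**Figure D4:**
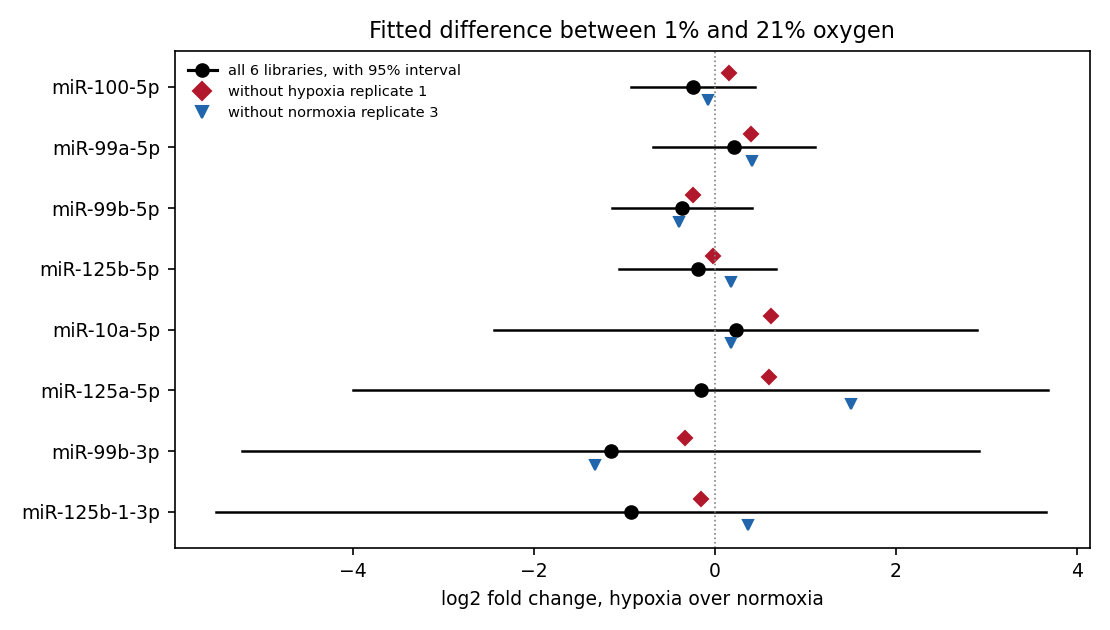
Black points and lines give the fitted log2 fold change, hypoxia over normoxia, with its 95% interval for each miRNA. Red diamonds leave out hypoxia replicate 1 and blue triangles normoxia replicate 3. Every interval spans 0, and leaving out a library moves miR-125a-5p from -0.15 to 0.60 or 1.50.

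The polycistron partners were tested in the same fit. Of the 6 let-7 strands that the 3 loci encode, 5 had a listed count, and the 3 guide strands, listed in all libraries, passed the filter. let-7c-5p had a log2 fold change of -0.14 (SE 0.31), let-7e-5p 0.39 (SE 0.48) and let-7a-5p 0.0037 (SE 0.30), and 0 were called. let-7e-5p and miR-99b-5p, from the same locus, thus had fitted values of opposite sign, both within their errors; the difference between them was not tested. The 3p strand of let-7e had 52 counts in hypoxia replicate 1, 7 in normoxia replicate 3 and no listed count elsewhere. let-7c-1-3p had 15 counts in hypoxia replicate 3 alone. The list of partners also held the strand shared by let-7c-2 and let-7a-1, whose hairpins lie outside the 3 loci, so it is not counted here.

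Likeness of profiles was measured as the root mean square difference of log2 CPM over the 6 libraries after centring each sequence, among the 56 sequences listed in all 6. The sequences share libraries and depth, so these values are descriptions. The nearest to miR-100-5p were miR-21-5p at 0.22, miR-125b-5p at 0.30 and let-7b-5p at 0.32, against a median of 0.64 over the 55 others. The nearest to miR-125b-5p were miR-100-5p at 0.30, miR-143-3p at 0.31 and miR-25-3p at 0.31. The seed partners of miR-100-5p were farther from it, miR-99b-5p at 0.55 (rank 22) and miR-99a-5p at 0.66 (rank 31).

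miR-99b-5p was closest to miR-218a-5p, at 0.11, then to miR-126a-3p at 0.23 and miR-152-3p at 0.30. For miR-99a-5p the nearest were miR-199a-3p at 0.39, miR-126a-3p at 0.40 and miR-152-3p at 0.41, and miR-99b-5p came next at 0.42. For miR-10a-5p they were let-7b-5p at 0.25, let-7e-5p at 0.35 and let-7c-5p at 0.36. Across the 6 libraries, miR-99a-5p and miR-99b-5p therefore lay nearer to each other than either lay to miR-100-5p.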

How the data were processed

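The authors deposited raw tag counts per mature miRNA and precursor, per the file headers, and a table of normalized values, whose whole numbers were treated as a score because the method behind them is not stated. The submitters' processing notes name Novoalign 3.02.12, cutadapt 1.9.3 and the build rn6. Counting program and annotation release: not given in the sources used here. Blank cells were taken as 0 and are called not listed. The smallest listed count is 2 in 5 libraries and 7 in normoxia replicate 2, so the table may hold only values above a minimum, and no upper limits are given.

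The 353 rows were reduced to 311 distinct mature sequences; repeated rows held identical counts. Counts were fitted in edgeR 4.0.16 (R 4.3.3) with filterByExpr (minimum count 10, minimum total 15), TMM factors (0.905 to 1.25), robust glmQLFit and glmQLFTest, and Benjamini-Hochberg adjustment at 0.05. Other settings tried were no filter, RLE, upper-quartile or no factors, DESeq2 1.42.0, limma 3.58.1 on the normalized table (pseudocount 1), a replicate block and leaving out each library. Each edgeR SE is the size of the log2 fold change over the square root of the F statistic, and its interval was built from that SE. Family shares and ratios have no test. The named miRNAs are the members, the fixed lists of partners, relatives, Hox cluster miRNAs and markers, and the 3 nearest profiles per member. The members and lists were chosen with earlier results of these data known. The RefSeq tables are of GRCr8, not rn6; their coordinates are printed only for a hairpin matched by sequence.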

Additional observations from a re-analysis of the deposited data

How the results depend on the processing

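No member was called under any alternative run. Over all sequences the count of 0 called higher and 0 called lower held in every fit except limma on the authors' normalized values, which called 1 lower, an unannotated sequence that is no member, with 41, 28 and 29 counts under normoxia and none listed under hypoxia. At an unadjusted p under 0.05, edgeR gave 1 sequence, DESeq2 1 and limma 2. That edgeR count was 6 with no filter, 5 without hypoxia replicate 1 and 5 without hypoxia replicate 2. It was 0 without hypoxia replicate 3, 3 without normoxia replicate 1, 2 without normoxia replicate 2 or 3 and 2 with the replicate block. The smallest adjusted p in edgeR was 0.0635, without normoxia replicate 1, then 0.0723 without hypoxia replicate 2 and 0.120 with no filter, and 0.974 or more in its other fits. The median log2 fold change of all sequences was -0.14 in the fit reported, -0.02 with upper-quartile factors and 0.15 without hypoxia replicate 1. With each library left out, the value ran from -0.37 to 0.16 for miR-100-5p, from -0.13 to 0.68 for miR-99a-5p, from -0.37 to 0.18 for miR-125b-5p, from -1.11 to 1.50 for miR-125a-5p and from -1.47 to 0.37 for miR-125b-1-3p. For miR-125a-5p it was 0.60 without hypoxia replicate 1 and 0.03 without hypoxia replicate 2. The sign also changed for miR-125a-5p with upper-quartile factors (0.052) and for miR-125b-5p with limma on the normalized values (0.039). With each library left out, miR-99b-5p ran from -0.39 to -0.03, miR-99b-3p from -1.49 to -0.16 and miR-10a-5p from 0.09 to 0.76. These 3 kept their signs under all 13 alternatives, which for miR-99b-3p reached down to -1.94.

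With the replicate number as a block, 0 sequences were called higher and 0 lower, and no member changed sign (miR-100-5p -0.23, miR-99a-5p 0.07, miR-99b-3p -1.94). Same-numbered libraries had correlations of deviations of 0.228, 0.0313 and 0.124, so the numbers were not taken to pair them; hypoxia replicates 2 and 3 correlated better with another number. Mean family shares moved by less than 1 SD when only annotated miRNAs were counted and when miR-320-3p counts were left out. Leaving out 1 of 3 libraries cannot move a mean by 1 SD, so only the ranges are given for it. The miR-99/100 share then ran from 5.68 to 7.39% under hypoxia and from 6.37 to 6.56% under normoxia. Of 77 alternative values for the differences in ratio, 6 moved by more than the smaller group SD, each on leaving out a library of the group with the larger SD. Leaving out a library of the other group cannot move a difference that far. The authors' normalized values left the ratios nearly unchanged, so 6 of 77 is no measure of stability. Low counts limit the 3p strands and miR-125a-5p. For miR-10a-5p, with 64 to 127 counts per library, the SE was 1.24 in edgeR, 0.88 in DESeq2 and 0.55 in limma. The source of that difference was not tested.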
